A study of Mus musculus with 27 samples.

Results

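Lungs of mice treated with an antisense oligonucleotide that targets miR-155, a microRNA (group AM155, 6 libraries) were compared with lungs of sensitized mice given no treatment (group CDG_HDM, 10 libraries). These 16 of the 27 libraries of the series were taken by their treatment labels, and the comparison used all genes of a table of linear RNA and a table of circular RNA. The mice were BALB/c AnNHsd, aged 87 days, and each library came from the left lung lobe. CDG_HDM mice were sensitized with house dust mite extract and cyclic di-GMP, a bacterial messenger that activates the STING sensor and serves as an adjuvant at mucosal surfaces. The protocol lasted 35 days. AM155 mice received 3 intravenous doses of 2 mg/kg of the oligonucleotide, carried by TheraSilence lipid nanoparticles and given on days 11, 18 and 25. Dex_CDGHDM mice (6 libraries) were sensitized and received 3 intraperitoneal doses of 3 mg/kg dexamethasone, a synthetic glucocorticoid, on the same days, and Saline mice (5 libraries) are labelled with saline as their treatment. The treatment label of AM155 names the oligonucleotide alone, without sensitization, and no group received nanoparticles with a control oligonucleotide, so effects of the oligonucleotide and of its carrier cannot be told apart.

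miR-155 is a microRNA that leukocytes induce on activation. A microRNA guides Argonaute proteins to messenger RNAs whose 3′ untranslated region (UTR) pairs with its seed, bases 2 to 8 from the 5′ end, and such messengers are usually repressed and degraded. An antisense oligonucleotide binds the microRNA and is designed to relieve that repression, so messengers with seed matches are those it could raise. In T cells, B cells and macrophages, miR-155 is known for sustaining inflammatory responses.

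The guide strand of mouse miR-155 (miR-155-5p, chromosome 16, 84714143 to 84714165, plus strand, RefSeq on GRCm38.p6) is shown with its seed in capitals, because the grouping of genes by seed match below rests on it. No other of the 1738 mature mouse miRNAs in the RefSeq table had this seed.
mmu-miR-155-5p: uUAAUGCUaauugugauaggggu
A match of 8 bases in a 3′ UTR reads AGCATTAA (pairing with bases 2 to 8, then an A), and a match of 7 bases lacks that A. Of 8 widely reported targets examined here, 7 carried the match of 8 bases in their longest annotated 3′ UTR, and Maf carried neither match in 4316 bases. One match of each of the 7 is shown in capitals with its flanks (GENCODE M21 transcripts, GRCm38), since these are the messengers on which an effect of the oligonucleotide would be looked for first.
Socs1 (chr16:10784195-10784224, minus strand): cgctgtgccgcAGCATTAAgtgggggcgcc
Inpp5d (chr1:87719827-87719856, plus strand): tgtttttaaaaAGCATTAAagaaaaccatc
Spi1 (chr2:91115426-91115455, plus strand): ccgccggccatAGCATTAAcccgtcgcccg
Cebpb (chr2:167690355-167690384, plus strand): tttccgtttcgAGCATTAAagtgaagacat
Bach1 (chr16:87732177-87732206, plus strand): atgaacagtttAGCATTAAgggttaatttt
Jarid2 (chr13:44920082-44920111, plus strand): gattttgttttAGCATTAAactgttcaagt
Ets1 (chr9:32757197-32757226, plus strand): ctgggttttaaAGCATTAAccttcatggtg

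Values are TPM, transcripts per 1000000, a share of a library's transcripts, so the read depth behind them is unknown. The linear table summed to 542264 to 770987 TPM in AM155 and to 628177 to 798457 TPM in CDG_HDM, against a full scale of 1000000. AM155 6 stood apart with the lowest linear sum. In AM155 5 and AM155 6 a single circular entry, that of the surfactant gene Sftpc, held 17.7% and 18.8% of all TPM. Because such shares move the TPM of every other gene, calls were made as deposited and after median-of-ratios scaling, which divides a library by the median ratio of its genes to their geometric mean over libraries. A change is the deposited one unless its sentence says that it is after scaling. The median log2 change of all 17437 genes tested was -0.08 as deposited and -0.003 after scaling. Scaling lowered the median absolute deviation of AM155 6 from the rest of its group from 0.393 to 0.0798 in log2(TPM + 1). The median SD of a gene within AM155 was 0.218 as deposited and 0.105 after scaling (CDG_HDM 0.159 and 0.128). The labels number the libraries and do not say that each is a separate mouse, so the p-values measure the spread between these libraries, part of which may be technical.

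**Figure D1:**
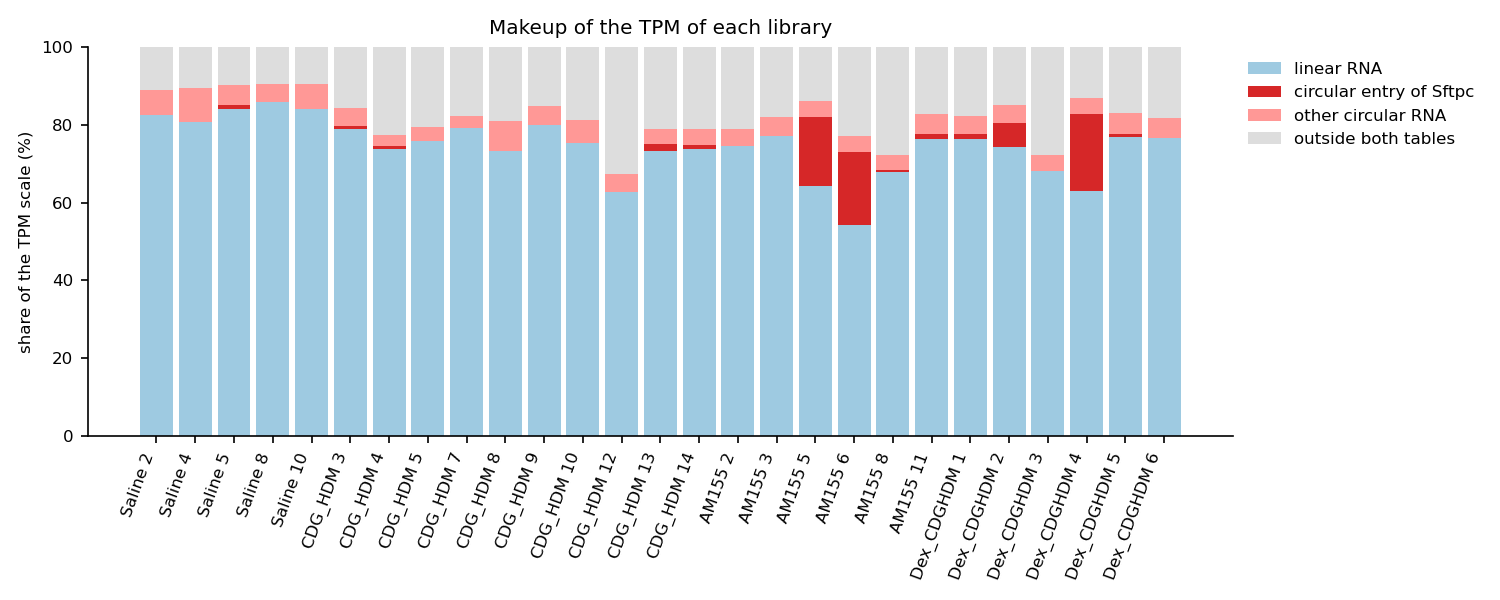
Share of each library's TPM scale (percent, y axis) held by linear RNA, by the circular entry of Sftpc, by other circular RNA and by transcripts outside both tables, for all 27 libraries (x axis). The Sftpc entry takes 17.7% in AM155 5, 18.8% in AM155 6, 19.8% in Dex_CDGHDM 4 and 6.15% in Dex_CDGHDM 2. CDG_HDM 12 has 32.8% outside both tables.

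Few genes differed between AM155 and CDG_HDM, and most of those were higher in AM155. Of the 16 higher genes as deposited, 9 were in lists of neutrophil, type I interferon, cytotoxic lymphocyte or red cell genes, and of the 31 after scaling, 17 were. These lists held 14, 21, 9 and 7 of the 17437 genes tested. They are named because they alone of 47 lists held a called gene. List members were chosen with earlier results of these data known, so the counts are a description. In limma's test, 18 of the 17437 genes passed an adjusted p of 0.05 as deposited (0.103%), 16 of them higher (0.0918%) and 2 lower (0.0115%). For 14 of the 16 higher genes the Saline median was above the CDG_HDM median. The 16 were picked as low in CDG_HDM against AM155, and the same CDG_HDM libraries enter this count, which favours it. The share over all genes was not counted, so no return toward Saline can be read from it. For 4 of the 16 the AM155 median was above the highest Saline library. After median-of-ratios scaling 34 passed (0.195%), 31 higher (0.178%) and 3 lower (0.0172%), and 17 genes passed in both. All 6 AM155 libraries lay above all 10 CDG_HDM libraries in 5 genes (0.0287%), 4 of which passed the test. All 6 lay below in 2 genes (0.0115%), 1 of which passed. The number of higher genes fell to 7 without AM155 3 or without AM155 8 and to 8 without AM155 5. It was 28, with 1 lower, when AM155 5 and AM155 6 were both left out. Ngp, Camp, Ifi27l2a, S100a8 and Rsad2 kept their call under all 34 alternatives tried, and no called gene changed direction under any of them. Gene levels come from whole tissue, in which more cells of a type and more RNA per cell cannot be told apart.

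**Figure D2:**
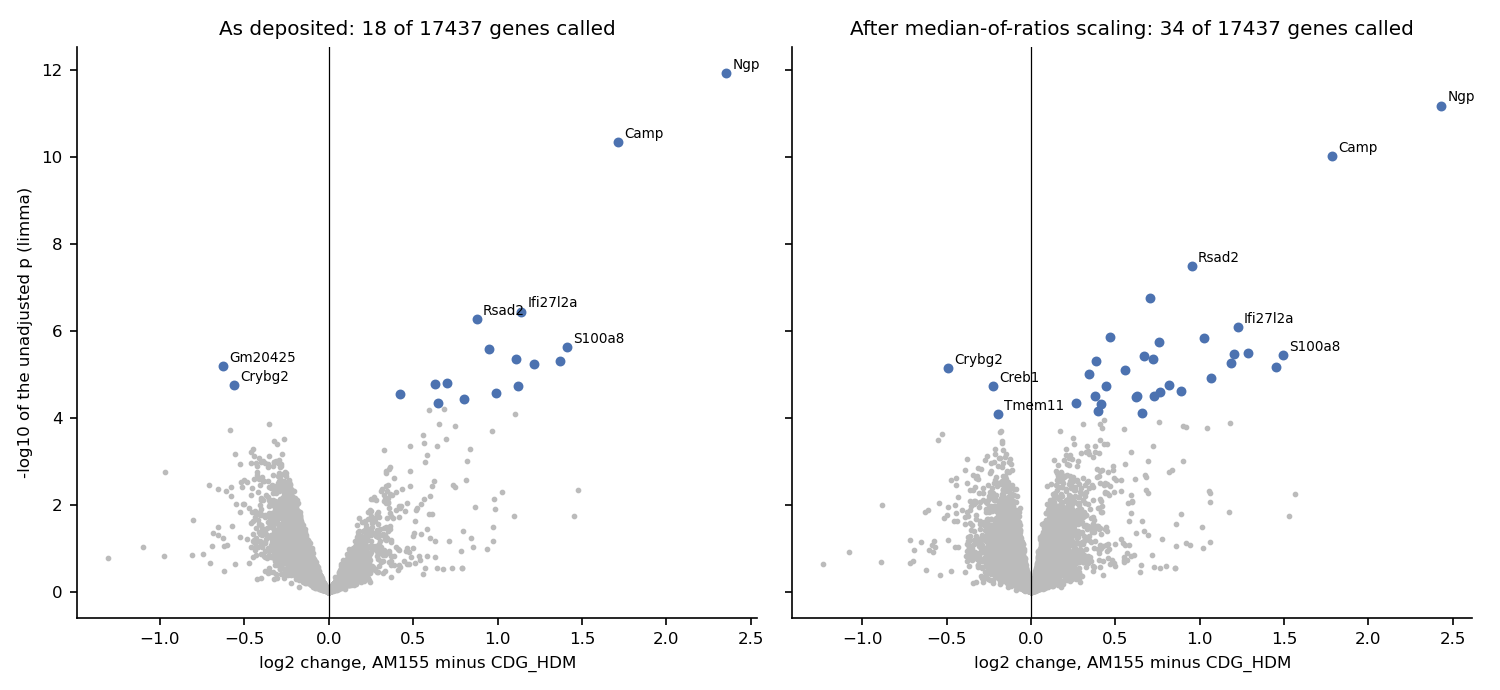
Log2 change of linear RNA, AM155 minus CDG_HDM (x axis), against -log10 of the unadjusted limma p (y axis), each point a gene, as deposited and after median-of-ratios scaling, with called genes in blue. Ngp and Camp lie farthest to the upper right in both panels, and the called genes are mostly on the right.

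Granule and calcium-binding proteins of neutrophils gave the largest changes. Ngp encodes a granule protein that neutrophils make while they mature in the bone marrow (chromosome 9, 110419747 to 110423012 of GRCm38). Its level ran from 4.78 to 19.7 TPM in AM155 (median 13.4), from 1.10 to 2.97 in CDG_HDM (median 1.40) and from 1.36 to 4.19 in Saline. All 6 AM155 libraries were thus above every CDG_HDM and every Saline library, with AM155 2 the lowest of the 6. The log2 change was 2.36 ± 0.20 (SE), adjusted p = 2.0e-08 by limma. Camp encodes the antimicrobial peptide precursor cathelicidin, stored in the same granules, and also lies on chromosome 9 (109847379 to 109849617). Camp ran from 2.58 to 9.86 TPM in AM155 (median 5.11) and from 0.4927 to 2.05 in CDG_HDM (median 0.861), again without overlap. Its log2 change was 1.71 ± 0.17, adjusted p = 3.95e-07.

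S100a8 and S100a9 encode the chains of calprotectin, the main cytosolic protein of neutrophils. S100a8 ran from 233 to 717 TPM in AM155 (median 372), from 84.9 to 238 in CDG_HDM (median 150.3) and from 183 to 487 in Saline. Only AM155 2 fell within the CDG_HDM range, and the AM155 median lay inside the Saline range. The log2 changes were 1.41 ± 0.24 for S100a8 (adjusted p = 0.00738) and 1.37 ± 0.25 for S100a9 (adjusted p = 0.0104). The S100a9 call ended without AM155 3 or without AM155 8 (adjusted p up to 0.0674).

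Of 14 neutrophil genes tested, 4 rose and 0 fell as deposited, and 6 rose after scaling. The 2 added by scaling were Mmp8, a collagenase of neutrophil granules (0.63 ± 0.12, adjusted p = 0.0197), and Mpo, the myeloperoxidase of primary granules (0.39 ± 0.07, adjusted p = 0.00607). The median log2 change of the list was 0.58 as deposited and 0.65 after scaling, against -0.08 and -0.003 for all genes. Lactoferrin (Ltf), another granule protein, ran from 31.5 to 175 TPM in AM155 and from 21.1 to 49.1 in CDG_HDM and did not pass (0.98 ± 0.34, adjusted p = 0.594). Summed over the list, TPM ran from 736 to 1930.3 in AM155 and from 286 to 705 in CDG_HDM, with no overlap. In Saline the sum ran from 656 to 1332, which overlapped the AM155 range. S100a8 and S100a9, described above, held most of this sum in the 2 libraries where the groups come closest. In AM155 6 they held 258 and 356 of 736 TPM, and in CDG_HDM 14 they held 238 and 340 of 705 TPM. The lack of overlap in the sum thus largely restates the result of these 2 genes and is not one of the whole list. Myeloid genes outside the list also rose. Ifitm6, a myeloid member of the interferon-induced transmembrane family, was at 1.21 ± 0.22 (adjusted p = 0.011), and lost the call without AM155 3 or AM155 8 (adjusted p up to 0.0682). Slfn4, a Schlafen family gene of myeloid cells, ran from 9.96 to 23.5 TPM in AM155 and from 3.63 to 9.92 in CDG_HDM. The lowest AM155 library was thus just above the highest CDG_HDM library. Its log2 change was 0.99 ± 0.20 (adjusted p = 0.0298), and the call ended in 11 of the 34 alternatives. These were leaving out any 1 of AM155 3, 5 and 8 or CDG_HDM 7, 8, 9 and 10 (adjusted p up to 0.163) and 4 others, among them no filter on low values and robust eBayes (up to 0.0907). Slfn4 and Ifitm6 belong to families of similar genes between which reads may be split.

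**Figure D3:**
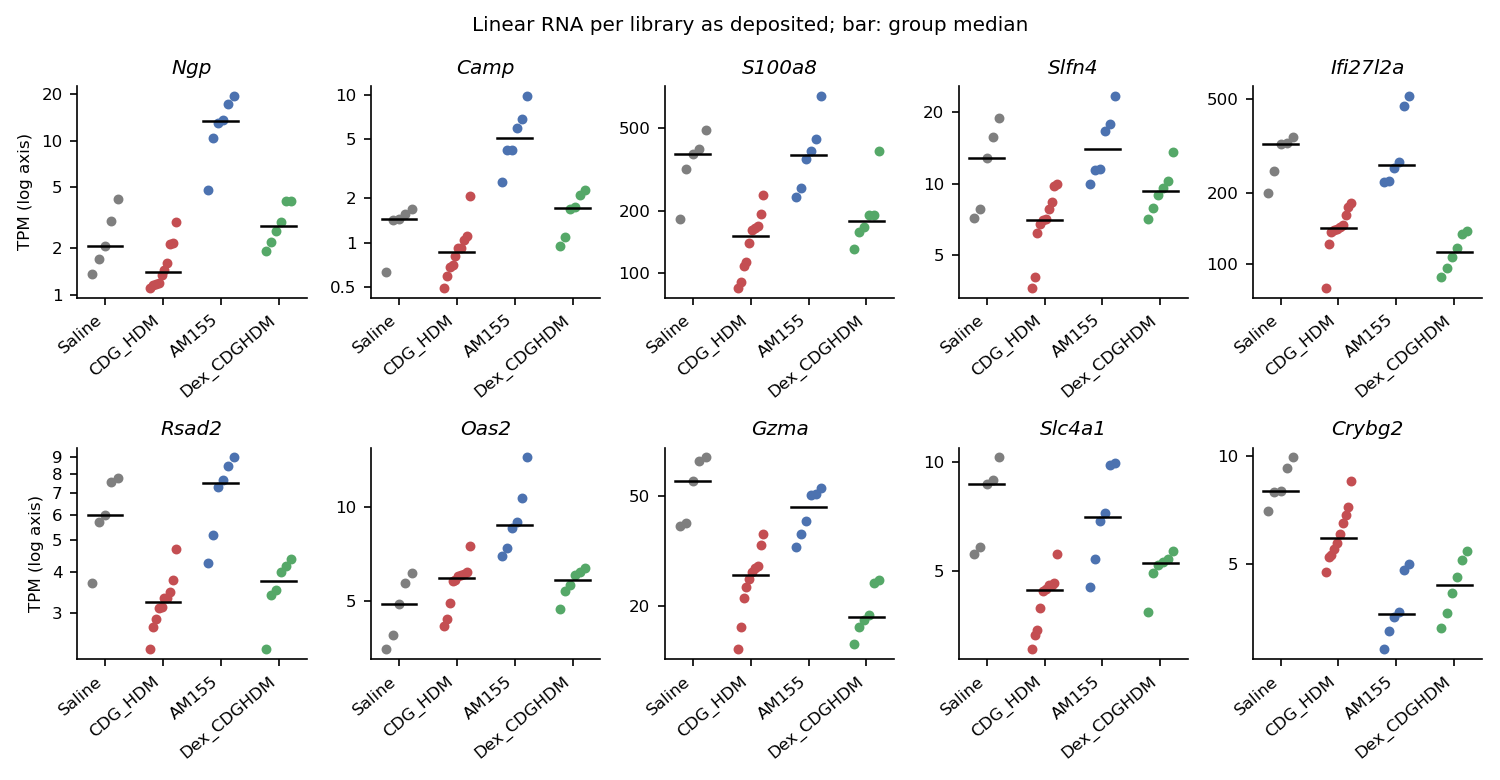
Linear TPM of 10 genes in each library (points, log y axis) of the Saline, CDG_HDM, AM155 and Dex_CDGHDM groups, with the group median as a bar. Ngp, Camp, Slfn4 and Ifi27l2a show every AM155 library above every CDG_HDM library, and Crybg2 shows the AM155 libraries low.

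Genes that cells switch on in response to type I interferon formed the second group. Ifi27l2a, a small interferon-induced protein of membranes (chromosome 12, 103442167 to 103443680), ran from 223 to 518 TPM in AM155 (median 264). It ran from 79.1 to 181 TPM in CDG_HDM (median 142) and from 199.5 to 347 in Saline. AM155 3 and AM155 8 were the highest, the other 4 lay between 223 and 271, and no AM155 library fell into the CDG_HDM range. The log2 change was 1.14 ± 0.18, adjusted p = 0.00206. Rsad2 encodes viperin, an enzyme that blocks virus replication, and lies on chromosome 12 as well (26442746 to 26456452). It ran from 4.28 to 8.99 TPM in AM155 (median 7.47) and from 2.32 to 4.72 in CDG_HDM (median 3.23), and only AM155 2 was within the CDG_HDM range. Its log2 change was 0.88 ± 0.14, adjusted p = 0.00231. Oas2, a sensor of double-stranded RNA, ran from 6.94 to 14.5 TPM in AM155, from 4.14 to 7.47 in CDG_HDM and from 3.49 to 6.13 in Saline. All 6 AM155 libraries exceeded the Saline range, and 4 exceeded the CDG_HDM range (0.63 ± 0.12, adjusted p = 0.0224). The Oas2 call ended without any 1 of AM155 3, 5 and 8 or CDG_HDM 8 (adjusted p up to 0.134), and with only the 16 libraries in the fit (0.0797).

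Of 21 type I interferon genes tested, 3 rose as deposited and 6 after scaling, and 0 fell. Added by scaling were Irf7, the transcription factor that amplifies the response (0.76 ± 0.15, adjusted p = 0.018), and 2 further genes of the oligoadenylate synthetase family. These were Oas3 (0.67 ± 0.11, adjusted p = 0.00544) and Oasl1 (0.62 ± 0.12, adjusted p = 0.0201), both after scaling. After scaling all 21 genes had a log2 change above 0, and 17 had an unadjusted p under 0.05 in the higher direction, where 3.56% of all genes did (3.68% in the lower direction). As deposited 10 of the 21 did, where 0.826% of all genes did (6.42% in the lower direction). Isg15, a ubiquitin-like modifier and a classic member, was among these 17 after scaling but did not pass adjustment (0.33 ± 0.12, adjusted p = 0.469 after scaling). The list median was 0.19 as deposited and 0.27 after scaling. Summed TPM of the list ran from 564 to 1062 in AM155, from 415 to 609.6 in CDG_HDM and from 497 to 696 in Saline. AM155 6 and AM155 11 were the 2 libraries within the CDG_HDM range. The interferon gamma list, which covers the type II response, had 0 of 24 genes called in either direction and a median of -0.05 as deposited and 0.03 after scaling.

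Promoters of the called genes were searched for the core of the interferon-stimulated response element, the site bound by the factor that type I interferon activates. The search used GAAANNGAAA on both strands, with overlapping matches allowed, in RefSeq windows from 250 bases before to 50 after each start site (GRCm38.p6). At least 1 window held the motif in 523 of 13251 tested genes with a window (3.95%) and in 10 of 16 interferon list genes. Among genes called higher after scaling it was 4 of 25, and these are shown with the motif in capitals, written along the gene's strand. In Rsad2, Apol11b and Gzma the motif stands on the opposite strand, so its complement is printed.
Rsad2 (chr12:26456553-26456582, minus strand): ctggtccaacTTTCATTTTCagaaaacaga
Oas3 (chr5:120777715-120777744, minus strand): gcagggaggaGAAAACGAAAgtgaagggag
Apol11b (chr15:77643317-77643346, minus strand): gaatttttacTTTCACTTTCatgcactggg
Gzma (chr13:113101059-113101088, minus strand): cctattttagTTTCATTTTCcagctctaca
Of these 4 genes, Rsad2 and Oas3 are in the interferon list. Bst2, Ifit1, Ifit3, Isg15, Oas1a and Stat2 of that list also held the motif and were called in neither scaling. The sites shown are matches of letters in sequence and were not tested for binding. Apol11b, a gene of the apolipoprotein L family, ran from 2.09 to 8.85 TPM in AM155 and from 1.25 to 2.35 in CDG_HDM, with AM155 11 the highest and AM155 2 alone inside the CDG_HDM range. Its log2 change was 0.95 ± 0.16, adjusted p = 0.00738, and the call ended with array weights (0.0502). Arhgef37, a guanine nucleotide exchange factor gene in none of the lists, ran from 1.92 to 4.74 TPM in AM155 and from 1.34 to 2.38 in CDG_HDM, with 4 of the 6 AM155 libraries above that range. It rose by 0.70 ± 0.14 (adjusted p = 0.0224), and the call ended without any 1 of AM155 2, 3, 5 and 8 (adjusted p up to 0.134).

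Among cytotoxic lymphocyte genes, 1 of 9 rose as deposited and 4 after scaling, with 0 lower. Gzma, the 1 called as deposited, encodes granzyme A, a protease of the killing granules of NK and T cells (chromosome 13, 113093825 to 113100981). It ran from 32.6 to 53.4 TPM in AM155 (median 45.4), from 14.0 to 36.4 in CDG_HDM (median 25.8) and from 39.0 to 68.9 in Saline. AM155 2 was the only AM155 library within the CDG_HDM range. The log2 change was 0.80 ± 0.17, adjusted p = 0.0378. The call ended in 17 of the 34 alternatives: without any 1 of AM155 3, 5, 8 and 11 or CDG_HDM 5, 7, 8, 9 and 10 (adjusted p up to 0.183), and in 8 others (up to 0.0812). The 8 include no filter on low values, only the 16 libraries, array weights and robust eBayes. Klra7, an inhibitory receptor of NK cells from a family of close copies, was near 1 TPM (0.674 to 1.34 in AM155, 0.439 to 0.683 in CDG_HDM; 0.42 ± 0.09, adjusted p = 0.0298). Its call ended without any 1 of AM155 3, 5, 8 and 11 or CDG_HDM 7, 8, 9, 10 and 14 (adjusted p up to 0.161), and without both AM155 5 and 6 (0.052). The 3 added by scaling were the NK receptor Ncr1 (0.56 ± 0.10, adjusted p = 0.00766), granzyme B (Gzmb, 0.73 ± 0.14, adjusted p = 0.0197) and perforin (Prf1, 0.40 ± 0.08, adjusted p = 0.0381), all after scaling. The summed TPM of the list was 114 to 151 in AM155, 73.6 to 123 in CDG_HDM and 95.6 to 179 in Saline. T cell genes, by contrast, had 0 of 22 called, with a median of -0.10 as deposited and -0.03 after scaling.

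Red cell genes were the fourth group. Slc4a1 encodes band 3, the anion exchanger of the red cell membrane (chromosome 11, 102348824 to 102366203). It ran from 4.51 to 9.95 TPM in AM155, from 3.03 to 5.59 in CDG_HDM and from 5.58 to 10.3 in Saline, with 4 of the 6 AM155 libraries above the CDG_HDM range. The log2 change was 0.65 ± 0.14 (adjusted p = 0.044), and the call ended without any 1 of AM155 3, 5, 8 and 11 or 8 of the CDG_HDM libraries (all but 3 and 5; adjusted p up to 0.232). It also ended in 4 other alternatives (no filter on low values, only the 16 libraries, array weights, and AM155 5 and 6 both out; up to 0.123). Outside the list, Trim10, a ring finger protein of maturing red cells, rose by 1.11 ± 0.20 (adjusted p = 0.0104). The Trim10 call ended without AM155 5 (adjusted p = 0.0541), without both AM155 5 and 6 (0.0743) and with array weights (0.146). All 7 erythroid genes tested had an unadjusted p under 0.05 in the higher direction in both scalings, where 0.826% of all genes did as deposited and 3.56% after scaling. Slc4a1 alone was called, and the median was 0.65 as deposited and 0.72 after scaling. Their summed TPM, mostly globin, ran from 11549 to 29853 in AM155, from 3864 to 18135 in CDG_HDM and from 27066 to 41230 in Saline. Among AM155 and CDG_HDM libraries, AM155 11 was the highest and CDG_HDM 4 the lowest. Platelet genes, another blood marker, had 0 of 6 called, with 2 at an unadjusted p under 0.05 higher as deposited and 5 after scaling. They summed to 61.2 to 91.3 TPM in AM155 against 55.05 to 80.04 in CDG_HDM, with a median of 0.22 as deposited and 0.28 after scaling. The part that blood left in the lobe plays in the neutrophil, cytotoxic and red cell results was not tested.

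**Figure D4:**
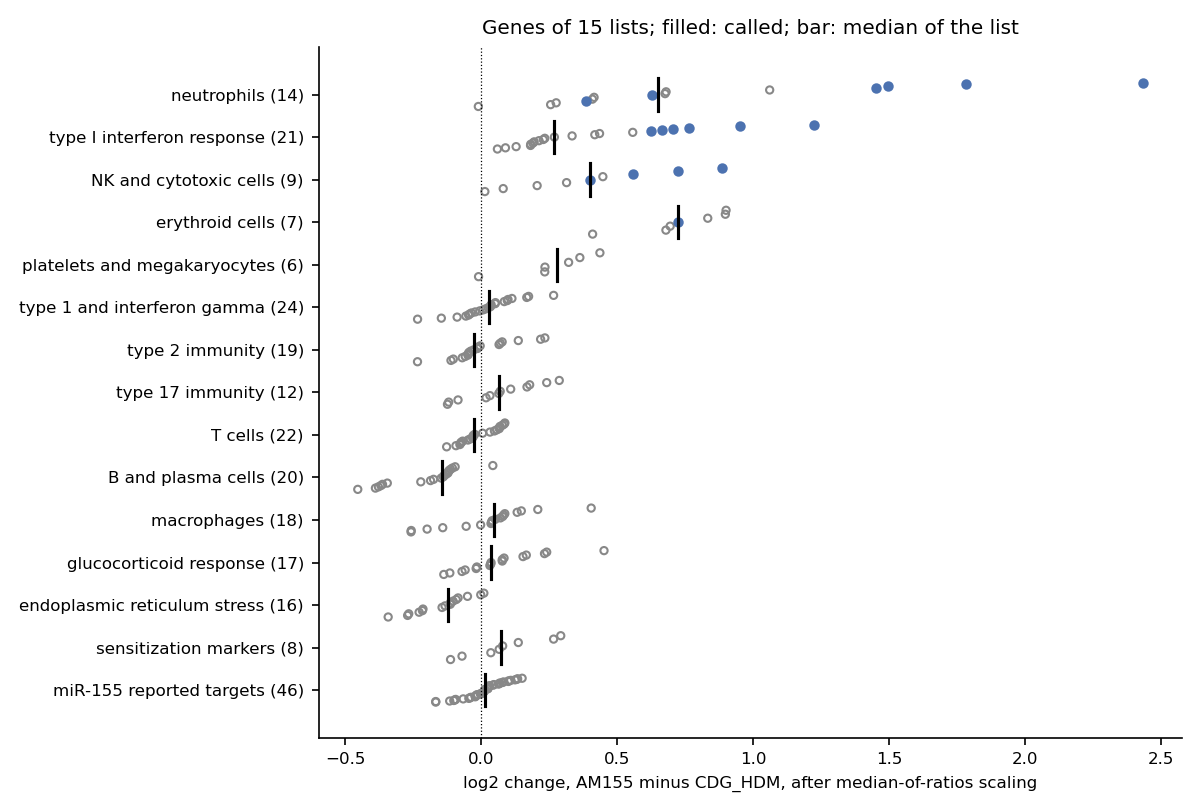
Log2 change of each gene, AM155 minus CDG_HDM, after median-of-ratios scaling (x axis) for 15 gene lists (y axis, number of genes tested in brackets), with called genes filled and the list median as a bar. Called genes occur in the neutrophil, type I interferon, NK and erythroid lists alone, and the 46 reported miR-155 targets lie close to 0.

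Lower genes were few. Crybg2, which encodes a protein with crystallin-type domains (chromosome 4, 134060815 to 134092504), ran from 2.89 to 5.02 TPM in AM155 (median 3.62), from 4.75 to 8.52 in CDG_HDM (median 5.90) and from 7.04 to 9.93 in Saline. AM155 2 and AM155 3 were the 2 AM155 libraries inside the CDG_HDM range. The log2 change was -0.56 ± 0.11 (adjusted p = 0.0224), and the call ended without any 1 of AM155 5, 6, 8 and 11 or CDG_HDM 9 (adjusted p up to 0.141). It also ended with only the 16 libraries, with array weights and without both AM155 5 and 6 (up to 0.165). Gm20425 fell from 5.75 to 10.9 TPM in CDG_HDM to 3.14 to 5.70 in AM155, without overlap (-0.63 ± 0.11, adjusted p = 0.0112), but was not called after scaling (-0.55 ± 0.13, adjusted p = 0.111). It also lost its call without AM155 8 (adjusted p = 0.0539) and in every other scaling tried, with adjusted p up to 0.277 when a library was left out of the scaled fit as well. The annotation marks it as overlapping another locus, so its reads may belong to neighbours. After scaling, Creb1, the factor that answers cyclic AMP (-0.23 ± 0.04, adjusted p = 0.0139), and the mitochondrial membrane gene Tmem11 (-0.20 ± 0.04, adjusted p = 0.042) were called lower. Cd209a, a lectin of dendritic cells, was among the lower genes of smallest p but was not called (1.81 to 4.82 TPM in AM155, 4.49 to 7.90 in CDG_HDM; -0.59 ± 0.14, adjusted p = 0.132).

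The reported targets of miR-155, which the treatment is directed at, gave no called gene. Of 46 such genes, all of them tested, 0 were called in either direction and in either scaling, and after scaling 1 had an unadjusted p under 0.05 higher and 1 lower. Their median log2 change was -0.07 as deposited and 0.01 after scaling, against -0.08 and -0.003 for all genes. Bach1, a repressor of haem-related genes and a target in many cell types, ran from 16.8 to 25.4 TPM in AM155 (median 22.6) and from 18.8 to 25.3 in CDG_HDM (median 22.6). The 2 ranges overlapped almost fully, and the change was -0.04 ± 0.08 as deposited (adjusted p = 0.862) and 0.04 ± 0.04 after scaling (adjusted p = 0.90). Inpp5d, the SHIP1 phosphatase that restrains signalling in leukocytes, ran from 64.4 to 94.1 TPM in AM155 and from 69.7 to 100.2 in CDG_HDM (-0.09 ± 0.13, adjusted p = 0.81). Socs1, a suppressor of cytokine signalling, was low and scattered (0.374 to 1.81 TPM in AM155, 0 to 4.44 in CDG_HDM; 0.01 ± 0.22, adjusted p = 0.985). Among the transcription factors, Spi1 (PU.1) stood at -0.06 ± 0.11 (0.03 after scaling), Cebpb at -0.10 ± 0.13, Maf at 0.05 ± 0.09 and Ets1 at -0.18 ± 0.11, with adjusted p from 0.684 to 0.851. The Polycomb partner Jarid2 stood at -0.10 ± 0.10 (adjusted p = 0.736). The level of miR-155 itself was not analysed here.

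Seed matches were then counted in the longest annotated 3′ UTR of all 16925 tested genes that have one. A match of 8 bases was found in 560 genes and a match of 7 bases alone in 979. After scaling the median log2 change was 0.004 for the first set, 0.0003 for the second and -0.004 for the 15386 genes with neither. As deposited the 3 medians were -0.07, -0.07 and -0.08. The lower and upper quartiles after scaling were -0.04 and 0.05 for genes with a match of 8 bases and -0.05 and 0.04 for those with neither. In the first set 0 genes were called in either scaling, with 5.36% at an unadjusted p under 0.05 higher and 3.75% lower after scaling (3.46% and 3.74% without a match). In the second set 0 were called as deposited and 2 after scaling, both higher: Klri2, a receptor of the NK family, and F13a1, a clotting factor subunit. Genes with a match have longer UTRs (median 2722 bases for a match of 8 and 1020 for none), and these differences are given as a description with no test. F13a1 ran from 4.88 to 13.5 TPM in AM155 and from 3.27 to 7.86 in CDG_HDM (0.82 ± 0.16 after scaling, adjusted p = 0.0139). The 16 genes called higher as deposited all lacked both matches, as did 15386 of all 16925 genes, so this count is near the share over all genes.

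**Figure D5:**
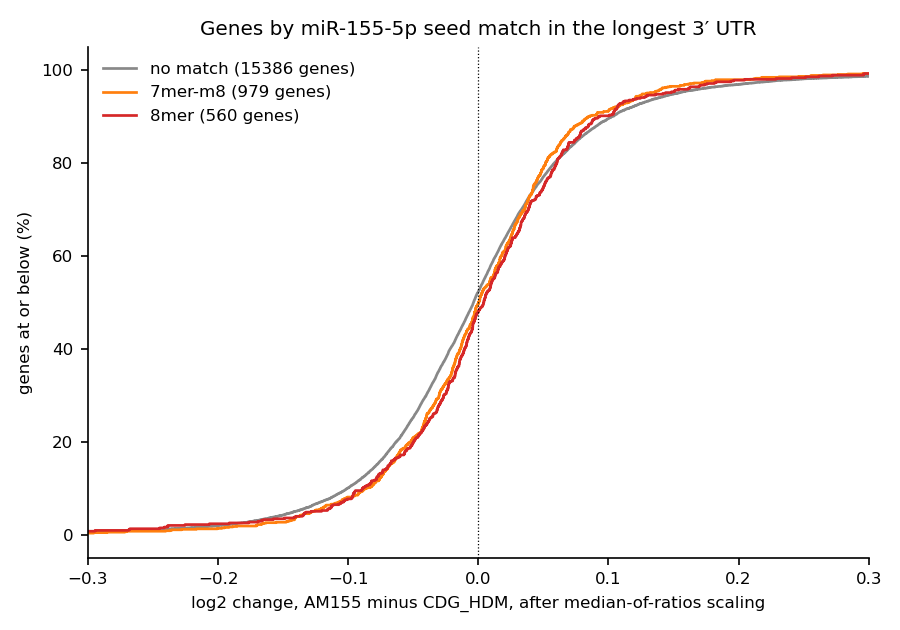
Cumulative share of genes (percent, y axis) at or below a log2 change, AM155 minus CDG_HDM, after median-of-ratios scaling (x axis, drawn from -0.3 to 0.3), by miR-155-5p seed match in the longest 3′ UTR: 8 bases (560 genes), 7 bases (979) and none (15386). The 3 curves cross 50% close to 0, with medians of 0.004, 0.0003 and -0.004.

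Genes that mark sensitization stood in AM155 at levels like those of CDG_HDM. Jchain, which joins IgA and IgM multimers, ran from 1653 to 3236 TPM in AM155, from 1686 to 3453 in CDG_HDM and from 10.04 to 24.0 in Saline. Ccl8, a chemokine of macrophages, ran from 173 to 473 TPM in AM155, from 157 to 641 in CDG_HDM and from 2.44 to 6.89 in Saline. AM155 libraries thus lay far above Saline in both genes, and neither was called against CDG_HDM (-0.20 ± 0.19, adjusted p = 0.729, and 0.05 ± 0.28, adjusted p = 0.948). These markers were chosen with results of these data known.

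No gene of the type 2, type 17, macrophage, B and plasma cell, eosinophil, mucus or glucocorticoid response lists was called in either scaling, and 43 of the 47 lists examined held none. The type 2 list (19 genes tested) had a median of -0.10 as deposited and -0.03 after scaling. Il33, the epithelial alarmin, ran from 80.3 to 123 TPM in AM155 and from 82.7 to 157 in CDG_HDM. The B and plasma cell list had a median of -0.22 as deposited and -0.14 after scaling (20 genes), with 1 gene at an unadjusted p under 0.05 lower after scaling. Genes of endoplasmic reticulum stress lay lower as well (16 genes, -0.21 and -0.12), among them the chaperone cofactor Dnajb9 (-0.42 ± 0.13, adjusted p = 0.469). Both medians were below that of all genes in both scalings, and none of these genes passed. In the mucus and goblet cell list, the median was 0.16 as deposited and 0.25 after scaling (13 genes). Its mucin Muc5ac ran from 0.544 to 3.09 TPM in AM155 and from 0.668 to 1.84 in CDG_HDM (0.34 ± 0.18, adjusted p = 0.684). Adipocyte genes varied widely between libraries (summed TPM 30.3 to 512 in AM155, 27.5 to 128 in CDG_HDM), with a median of 0.97 and 0 of 7 called.

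Whether these changes differ from those after dexamethasone was tested directly as AM155 minus Dex_CDGHDM. As deposited, 14 of 17437 genes passed (0.0803%), 11 higher in AM155 and 3 lower, and 103 passed after scaling. Dex_CDGHDM 4 also had a large circular entry of Sftpc (19.8% of TPM). Ngp (1.76 ± 0.23, adjusted p = 0.000179), Ifi27l2a (1.45 ± 0.20, adjusted p = 0.000266) and Camp (1.26 ± 0.19, adjusted p = 0.00154) were higher in AM155. Gzma (1.14 ± 0.19, adjusted p = 0.00443), Apol11b (1.03 ± 0.18, adjusted p = 0.00893) and Rsad2 (0.76 ± 0.15, adjusted p = 0.0366) were higher too. S100a8 ran from 131 to 388 TPM in Dex_CDGHDM and did not pass (0.96 ± 0.27, adjusted p = 0.255). Slc4a1 did not pass either (0.42 ± 0.15, adjusted p = 0.462).

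Circular RNA arises when a splice donor joins an upstream acceptor, and its values here are listed per gene symbol, without junctions. No circular entry passed the test: 0 of 2271 (0%) by limma, with 117 at an unadjusted p under 0.05 (5.15%), 50 higher and 67 lower. The ratio of circular to linear RNA gave 0 of 2266 (0%) and 108 unadjusted (4.77%). Most entries are listed at 0 in some libraries. That of Zfp608, a zinc finger gene, was above 0 in 9 of 10 CDG_HDM libraries, with a median of 25.1 TPM, and in AM155 6 alone of AM155 (15.98 TPM). Its log2 change was -3.63 ± 0.78 (adjusted p = 0.204), while its linear RNA stood at -0.06 as deposited and 0.02 after scaling. It passed without CDG_HDM 4 (adjusted p = 0.00356), the 1 CDG_HDM library at 0, without AM155 6 (0.0109), and with the circular table rescaled to 1 common sum (0.0237). CDG_HDM 4 and AM155 6 are the libraries that go against the difference. With any other 1 library left out, no circular entry passed. That of Usp7, a deubiquitinase, was at 0 in all CDG_HDM libraries and above 0 in 4 of 6 AM155 libraries, up to 109 TPM (3.55 ± 0.86, adjusted p = 0.317). It passed without AM155 6. The entry of Stat6, the factor activated by interleukins 4 and 13, was above 0 in all 10 CDG_HDM libraries (10.8 to 17.9 TPM) and in 2 of 6 AM155 libraries (-2.69 ± 0.78, adjusted p = 0.621). It was above 0 in 2 of 6 Dex_CDGHDM and 3 of 5 Saline libraries as well.

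The circular sum was larger and more scattered in AM155, at 108152 ± 90552 TPM (SD, n = 6) against 49500 ± 13262 (n = 10), a difference that did not pass (exact permutation test, two-sided, p = 0.0572, adjusted p = 0.229 over 4 totals). The Sftpc entry stood at 177260 TPM in AM155 5 and 187944 in AM155 6, and between 0 and 17753 in the other 14 libraries of AM155 and CDG_HDM. It was also large outside these groups, at 197545 TPM in Dex_CDGHDM 4 and 61473 in Dex_CDGHDM 2. Without it the sums were 44208 ± 4643 in AM155 and 45120 ± 14146 in CDG_HDM (exact permutation p = 0.895). Sftpc encodes surfactant protein C of alveolar type 2 cells and is among the most abundant linear RNAs of the lung. Its linear level ran from 12703 to 18795 TPM in AM155 and from 15835 to 24047 in CDG_HDM (-0.33 ± 0.10, adjusted p = 0.548). The number of circular genes above 0 had the same mean in both groups (1415.5), and the share of TPM outside both tables was 20.1% ± 4.85 against 20.5% ± 4.94 (exact permutation p = 0.899). The linear sum was 690873 ± 88577 TPM against 745997 ± 48363 (exact permutation p = 0.128, adjusted p = 0.256).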

How the data were processed

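RNA of left lung lobes was depleted of ribosomal RNA and sequenced in pairs of reads, with a strand-specific library, per the labels' protocols. The labels give read lengths of 150 and 100 bases without saying which library had which. The authors deposited TPM (transcripts per 1000000) per gene symbol for linear RNA (21742 symbols) and circular RNA (4416). The build mm10 and CASAVA 1.9 come from the submitters' processing notes; for aligner, quantifier and annotation the sources used here give no name. TPM carry no read depth, so no counting interval can be given.

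A gene entered the test when 5 or more of the 27 libraries held 1 TPM or more. The test ran on log2(TPM + 1), so changes of low genes are understated. limma 3.58.1 in R 4.3.3 was fitted to all 27 libraries in 1 model with a trended prior, and p was adjusted by Benjamini-Hochberg over all genes tested at 0.05. Circular entries needed a value above 0 in at least 5 libraries. Median-of-ratios scaling was the first of 34 alternatives tried per gene, which also covered filters, other scalings and leaving out each library. Library totals were compared by a two-sided exact permutation test over 8008 arrangements. All per-sample columns were matched to a sample (0 left over). Among the linear symbols, 26 look like dates and were kept as written.

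Genes named are the called genes of largest change (where fewer than 5 are called in a direction, the 10 of smallest p), the leading members of each of 47 gene lists, 8 fixed targets, and for circular RNA the 5 of smallest p in each direction and the 5 of highest mean. Genes called only after scaling, and the promoter motif, were added after their values were seen. The members and lists were chosen with earlier results of these data known. Counts of called genes cover all genes tested, some of which are not reported here by name.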

Additional observations from a re-analysis of the deposited data

Results flagged for a closer look

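A library was singled out where its gap to the next was a large part of its group's range (Dixon's 95% critical value). For normally distributed values chance does so in about 1 in 20 groups. This held for 25 of 266 groups tested. The groups share libraries and include circular entries at 0 in most libraries, so the rate of 1 in 20 need not hold for them. In linear TPM of CDG_HDM the low libraries were CDG_HDM 10 for Ifi27l2a (79.1), CDG_HDM 12 for Tnrc6a (83.7), and CDG_HDM 4 for mt-Co3 (2850.5). The high ones were CDG_HDM 4 for Gm20425 (10.9), Camp (2.05), Ngfr (3.72) and Socs1 (4.44), CDG_HDM 3 for Arhgef37 (2.38), CDG_HDM 13 for Muc5ac (1.84) and CDG_HDM 10 for Acta1 (1.17). In AM155, library 6 was low for Cd209a (1.81) and Dcn (45.9), and library 11 was high for Mgl2 (16.3) and low for Saa3 (103). CDG_HDM 12 had the lowest linear sum of its group (628177 TPM) and the highest share outside the tables (32.8%).

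In circular TPM, AM155 8 was low for Clasp2 (5.69) and Rsf1 (7.67), while CDG_HDM 12 was high for Rsf1 (16.8), AM155 2 for Zfp704 (23.8) and AM155 5 for Trim33 (30.2). Zfp608 stood at 15.98 in AM155 6 with the rest of AM155 at 0, and at 0 in CDG_HDM 4 alone of its group. Scgb1a1 was above 0 in CDG_HDM 8 alone of its group (29262), and Lyz2 in AM155 6 alone of its group (8725).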

How the results depend on the processing

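As deposited 16 genes were higher and 2 lower. The number higher was 31 after median-of-ratios scaling, 37 after rescaling the linear table to 1 common sum and 30 after quantile normalization. Chosen after seeing the data, it was 27 when TPM were rescaled without the circular entry of Sftpc and 28 without AM155 5 and AM155 6. The number lower was 1 with the common sum, with only the 16 libraries, without the circular Sftpc and without AM155 5 and 6. Leaving out 1 library gave 7 to 20 higher and 0 to 5 lower, and 19 to 37 and 1 to 6 after median-of-ratios scaling (25 higher without AM155 6, 28 without AM155 5, 36 without AM155 11). Of the 18 called genes 5 kept their call under all 34 alternatives and 0 changed direction. Of 98 named genes that were not called, 20 had the other sign under at least 1 alternative. Against Dex_CDGHDM, 103 genes passed after scaling in place of 14. Circular calls were 1 with a common sum, 3 without AM155 5 and 6, and 0 to 2 with 1 library left out (ratio 0 to 2). The cause of these moves was not tested.

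The difference in circular sum became -912 TPM without Sftpc. With 1 library left out the differences ran from -71147 to -25402 TPM (linear sum), 34288 to 71573 TPM (circular sum), -1.87 to 1.02 percentage points (share outside) and -37.7 to 43.4 (circular genes). Without AM155 5 and 6 the 4 differences were -6001 TPM, 432 TPM, 0.557 percentage points and 13, against -55124 TPM, 58652 TPM, -0.353 and 0 with all libraries. AM155 and CDG_HDM share the numbers 3, 5 and 8, whose deviations correlated at 0.073, 0.053 and -0.029. Whether libraries of the same number belong together cannot be told from these values. The fit with a replicate block gave 16 higher, 2 lower and 0 circular calls.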
